A study of Mus musculus with 6 samples.

Results

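The expression of 33 genes for the building, tethering and fusion of platelet granules was examined in mouse megakaryocytes, the cells that shed platelets. The 33 genes were taken by name from a list drawn up with earlier results of these data known, and all 33 were among the 18211 genes tested. They were sorted by the complex or step they serve, which gave 9 subunits of the BLOC-1, BLOC-2, BLOC-3 and AP-3 sorting complexes, 8 subunits of the HOPS tethering complex and of the VPS33B complex, 12 SNAREs and SNARE regulators, and 4 BEACH proteins and granule transporters.

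Platelets carry alpha granules, which hold adhesive, clotting and growth factors, and dense granules, which hold serotonin, adenine nucleotides and calcium. Megakaryocytes make both kinds from Golgi and endosomal membranes: BLOC and AP-3 complexes sort the cargo, tethering complexes with Sec1/Munc18 proteins bring membranes together, and SNAREs fuse them, again at secretion from the platelet. In humans, loss of BLOC or AP-3 subunits causes forms of Hermansky-Pudlak syndrome, loss of NBEAL2 causes gray platelet syndrome, and loss of VPS33B or its partner VIPAS39 causes arthrogryposis, renal dysfunction and cholestasis syndrome.

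The p45-/- samples were cultures of primary megakaryocytes from p45-/- fetal livers at embryonic stage E13.5, and the WT samples were the same kind of culture from wild-type fetal livers of that age, all of strain C57BL/6. The protein p45 is the large subunit of NF-E2, a transcription factor of megakaryocytes and red cell precursors, and Nfe2 encodes it. Each group had 3 arrays, numbered 1 to 3, from independent experiments per the series' design text. The labels give neither the structure of the p45 allele nor the culture conditions nor whether livers were pooled. Their extraction protocol names whole embryos as the RNA source, against cultured megakaryocytes in the source field, and the files do not settle which holds. Of the megakaryocyte markers, 9 of 9 were well above background on all 6 arrays.

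Levels are log2 processed intensities relative to the 75th percentile of the same array, and differences are p45-/- minus WT. That percentile was 135, 407 and 589 intensity units on p45-/- arrays 1 to 3, and 339, 583 and 575 on WT arrays 1 to 3, with 57.8% to 64.8% of probes well above background. The p45-/- array 1 stood apart: across genes it correlated at 0.782 to 0.884 with the other arrays, which correlated with each other at 0.941 to 0.984. Group medians and members with the larger differences are therefore also given without it. Nfe2 was at 5.88 ± 0.88 in p45-/- and 6.05 ± 0.71 in WT (SD, n = 3 each), a difference of -0.17 (SE 0.57, limma adjusted p = 0.923), or 0.34 without p45-/- array 1. The Nfe2 probe could lie inside or outside the deleted stretch, which no source used here tells, and its level is no test of the labels.

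Marker lists of other cell types stood at unlike levels in the groups, and summed levels are given over all markers on the array. The 9 erythroid markers tested were all higher in p45-/- (median difference 2.26), with a summed linear level of 114 to 994 times the 75th percentile in p45-/- and 89.1 to 363 times in WT. Most of that sum was Hba-a1, whose difference was the smallest of the 9, at 0.56, with overlapping groups. The 6 hepatocyte markers tested were also higher (median 1.20, summed level 41.1 to 148 in p45-/- and 34.2 to 59.6 in WT). All 6 neutrophil markers were lower (median -0.84, summed level 162 to 243 in p45-/- and 251 to 430 in WT), as were 5 of the 6 mast cell and basophil markers tested (median -1.05, or -0.46 without p45-/- array 1, summed level 4.35 to 16.0 in p45-/- and 12.9 to 29.7 in WT). The 6 stromal markers had higher means (median 0.52, summed level 7.46 to 22.4 in p45-/- and 7.25 to 14.5 in WT), but the median was 0.0098 with median scaling and depended on the arrays. It was 0.99 without p45-/- array 1, 0.11 with 4 of 6 higher without p45-/- array 3, and -0.016 within slide 2. The hepatocyte median was 0.67 without p45-/- array 3, with 6 of 6 still higher. Of the 4 macrophage markers tested, 2 were lower and 2 higher (0 lower without p45-/- array 1), the summed level was 65.1 to 97.6 in p45-/- and 60.3 to 111 in WT, and Cd163, which failed the filter, did not reach well above background on the 6 arrays. Megakaryocyte markers were lower for 7 of 9 genes (median -0.29, summed level 864 to 1625 in p45-/- and 996 to 1525 in WT). Without p45-/- array 1, with WT array 1 kept, the same 9 markers had 2 lower genes and a median of 0.058. Without replicate 1 of both groups they had 7 lower genes and a median of -0.23. The mast cell and basophil median was then -1.04. None of these lists had a gene past an adjusted p of 0.05 in limma, with or without the replicate block. In such bulk samples, fewer cells of a type and less RNA per cell cannot be told apart, and the part these markers play in the differences below was not tested.

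The granule genes leaned towards lower levels in p45-/-, most of them by small amounts. The group mean was lower in p45-/- for 28 of 33 members, against 53.5% of all genes tested, and their median difference was -0.37, against -0.048 over all genes. The same count was 22 of 33 with quantile normalization and 33 of 33 with median scaling, a scaling that by itself moved the median of all genes to -0.56. No member passed an adjusted p of 0.05 in limma, and neither did any of the 18211 genes (0%). With the replicate number as a block the count was again 0 members, against 5 genes or 0.0275% of all. At an unadjusted p under 0.05, 3 members were lower (Vps33b, Lyst and Stx11) and 0 higher, where all genes had 3.33% lower and 2.62% higher. With the block these counts were 5 lower, Nbeal2 and Abcc4 being added, and 0 higher, where all genes had 5.96% lower and 14.3% higher. The 3 p45-/- values all lay below the 3 WT values for 6 of 33 members, against 8.44% of all genes, and all above them for 0 members, against 4.78% of all genes. One of the 6, Vamp8, had only 2 p45-/- values, and another, Dtnbp1, overlapped on its other tested probes. The shares of all genes were not matched to the level of the members, which was higher in the median.

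One array held the lowest level of nearly all members. For 30 of the 33 members the lowest of the 6 levels was that of p45-/- array 1, as it was for 47.3% of all genes. The members were not alone in this, since the share was 80% to 88.9% in the 4 related lists below. Among the marker lists it ran from 0% (erythroid, hepatocyte and neutrophil) to 88.9% (megakaryocyte). The median level of the members was 1.41, 2.51 and 2.18 on p45-/- arrays 1 to 3, against 2.64, 2.63 and 2.41 on WT arrays 1 to 3. Over all genes it was -0.14, -0.35 and -0.34 on p45-/- arrays 1 to 3, against -0.34, -0.38 and -0.39 on WT arrays 1 to 3. On p45-/- array 1 the median of all genes was thus the highest and that of the members the lowest. The part of signal level in the members' differences was not tested. Taken between arrays of the same number, the median difference of the members was -0.93 for replicate 1, -0.070 for replicate 2 and -0.12 for replicate 3, the pair that shared slide 1. Over all genes the medians of the same pairs were -0.37, 0.12 and 0.064, so they also were lowest for replicate 1. Within slide 2, which held the other 4 arrays, the median difference was -0.47. In all 3 pairs 17 of 33 members were lower, Vamp8 having only 2 pairs, against 23.6% of all genes. Without p45-/- array 1, 17 of 33 members had a lower mean in p45-/-, against 42.9% of all genes, and their median difference was -0.016. Without replicate 1 of both groups it was 19 of 33, against 41.6% of all genes, with a median of -0.12. Without p45-/- array 1 alone the difference was -0.5 or lower for 5 members, Vps33b, Lyst, Stx11, Nbeal2 and Abcc4. That is 15.2% of members, not far above the 11.3% of all genes. Over all 6 arrays 4 of these 5 (Lyst excepted) were at least 2-fold lower, or 12.1% of members, against 3.68% of all genes. The plot of differences by member shows these genes to the left of the rest of their groups.

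**Figure D1:**
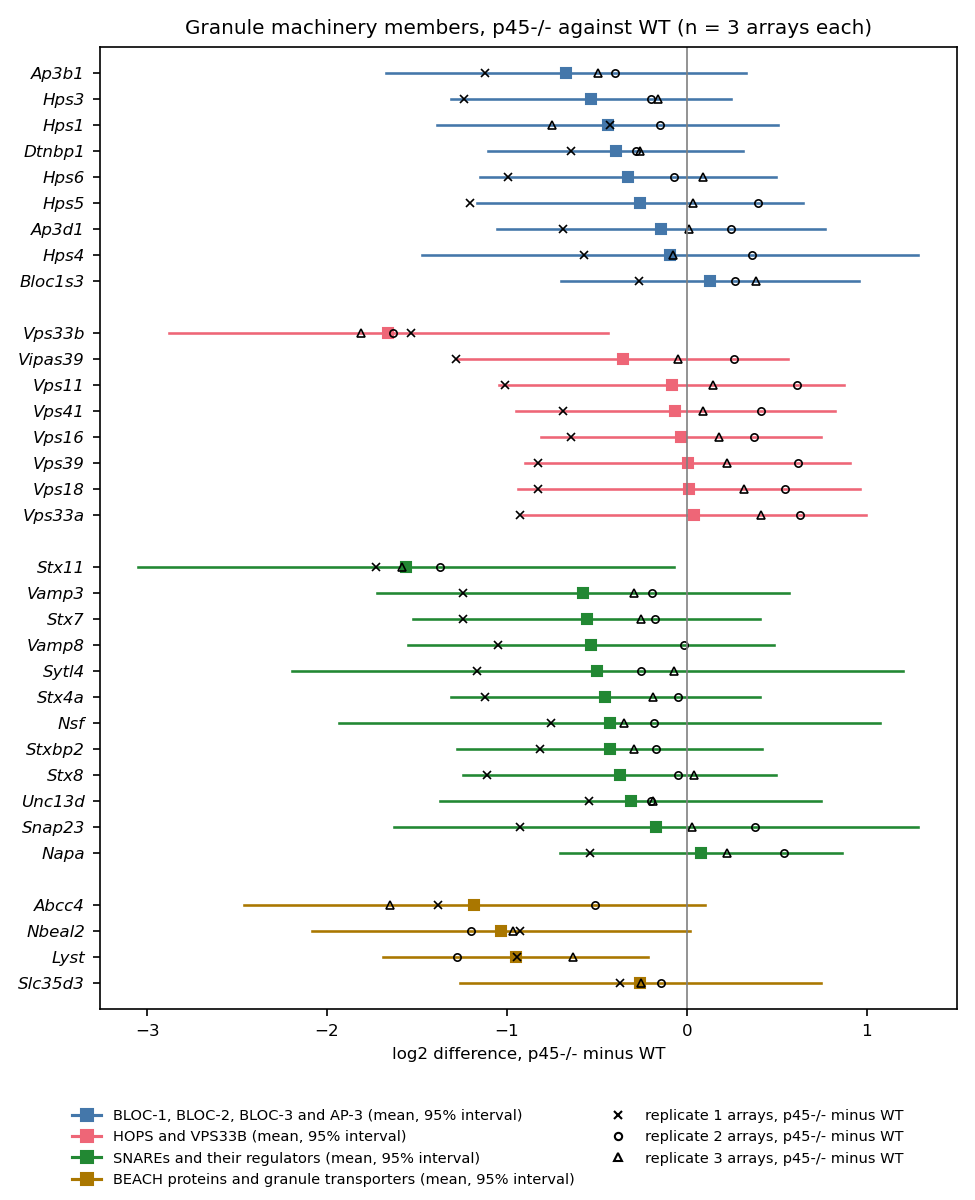
Log2 difference, p45-/- minus WT, of each of the 33 members, with the mean and its 95% interval from limma (squares and lines, coloured by group) and the difference between arrays of the same number (crosses for replicate 1, circles for replicate 2, triangles for replicate 3). The crosses lie left of the other marks for most members. In all 3 pairs 17 of 33 members lie below 0, among them Vps33b, Stx11, Nbeal2, Abcc4 and Lyst. With quantile normalization 22 of 33 members are below 0, and with median scaling 33.

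NF-E2 binds a motif whose core, TGAGTCA, is shared with AP-1 factors and whose longer form is GCTGAGTCA, so the starts of the members' genes were searched for these letters on both strands. RefSeq promoter windows of build GRCm38.p6, from 250 bases before to 50 bases after a start site, were found for 28 of 33 members, in 32 windows. The core was in 1 of the 32 windows, against 5.2% of the 32851 windows in the table. The longer form, which contains the core, was in the same single window, against 0.454%. That window belongs to Hps1, with the first base of the longer form at -8 from the start site. A second window of Hps1 held neither form, and neither did the windows of Stx11, Nbeal2 and Lyst or the 2 windows of Abcc4. Vps33b, Vps11, Vps39, Unc13d and Vamp3 had no window in the table. The windows of Stx11, Nbeal2 and Lyst, 3 of the 5 members with the lowest differences, are shown beside that of Hps1, each 5′ to 3′ on the gene's strand and ending near the start site, with GCTGAGTCA in capitals.
Hps1, chr19:42779978-42780228, minus strand: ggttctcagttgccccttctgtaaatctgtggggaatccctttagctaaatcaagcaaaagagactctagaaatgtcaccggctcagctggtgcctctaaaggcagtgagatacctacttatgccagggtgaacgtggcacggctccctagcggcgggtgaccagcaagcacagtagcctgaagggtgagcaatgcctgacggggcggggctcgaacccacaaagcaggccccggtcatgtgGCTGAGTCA
Stx11, chr10:12964260-12964509, minus strand: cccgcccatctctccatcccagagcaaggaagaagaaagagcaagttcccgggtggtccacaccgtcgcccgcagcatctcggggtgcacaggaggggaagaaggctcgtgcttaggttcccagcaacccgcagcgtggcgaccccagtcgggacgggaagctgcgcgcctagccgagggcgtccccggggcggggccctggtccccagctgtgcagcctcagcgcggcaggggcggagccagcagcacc
Nbeal2, chr9:110654162-110654411, minus strand: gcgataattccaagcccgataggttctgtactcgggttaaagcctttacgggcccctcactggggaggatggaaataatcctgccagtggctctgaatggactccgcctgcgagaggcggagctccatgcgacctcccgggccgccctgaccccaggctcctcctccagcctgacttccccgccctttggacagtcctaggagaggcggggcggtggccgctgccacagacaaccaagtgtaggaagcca
Lyst, chr13:13590159-13590408, plus strand: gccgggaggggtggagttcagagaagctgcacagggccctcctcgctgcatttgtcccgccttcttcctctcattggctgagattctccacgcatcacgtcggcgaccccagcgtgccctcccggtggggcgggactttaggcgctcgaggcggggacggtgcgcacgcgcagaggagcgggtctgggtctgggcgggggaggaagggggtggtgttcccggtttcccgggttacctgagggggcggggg
Added after the values were seen, the GATA motif AGATAA was in 2 of the 32 windows (Ap3d1 and Vps41), against 11.2% of all, and the ETS motif CCGGAA in 9, against 14.9%. A match is a description of these windows only, and a missing match says only that the letters are not in the window.

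The sorting complexes BLOC and AP-3 showed small differences. The p45-/- mean was lower for 8 of 9 members, with a median difference of -0.33, or for 7 of 9 with a median of -0.16 under quantile normalization. Without p45-/- array 1 it was lower for 5 of 9, with a median of -0.15. Without replicate 1 of both groups it was lower for 4 of 9, with a median of 0.0089. Ap3b1 encodes the large beta subunit of AP-3, the subunit missing in pearl mice and in a human form of Hermansky-Pudlak syndrome. Its level was 3.89, 5.20 and 4.84 on p45-/- arrays 1 to 3, against 5.01, 5.60 and 5.33 on WT arrays 1 to 3. The p45-/- value was lower within each numbered pair, but the groups overlapped, and the difference was -0.67 (SE 0.42, limma adjusted p = 0.704), with a 95% interval of -1.67 to 0.33. Ap3d1, the delta subunit missing in mocha mice, differed by -0.14.

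Within BLOC-2, Hps3 was at -0.51, 0.094 and 0.22 on p45-/- arrays 1 to 3, against 0.72, 0.29 and 0.38 on WT arrays 1 to 3. The groups did not overlap, and the gap was wide only for replicate 1; the difference was -0.53 (SE 0.32, limma adjusted p = 0.704). A second Hps3 probe, for another transcript, failed the filter on dim probes and had a difference of 1.33. Hps5 and Hps6, the other subunits of BLOC-2, differed by -0.26 and -0.33. Hps1 and Hps4 together form BLOC-3, an exchange factor for Rab32 and Rab38, and differed by -0.44 and -0.094. Hps1, whose window carried the NF-E2 motif, was at -0.49, 0.24 and -0.95 on p45-/- arrays 1 to 3, against -0.067, 0.39 and -0.20 on WT arrays 1 to 3, so its groups overlapped.

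Of BLOC-1, the complex that sorts cargo on early endosomes, 2 subunits are members. Dtnbp1, which encodes dysbindin, was at 4.25, 4.86 and 4.70 on p45-/- arrays 1 to 3, against 4.89, 5.14 and 4.96 on WT arrays 1 to 3. All p45-/- values lay below the WT values, by little for replicates 2 and 3, and the difference was -0.39 (SE 0.30, limma adjusted p = 0.705). Other tested probes of Dtnbp1 gave -0.31 and -0.29, and on these the groups overlapped. Bloc1s3 was higher by 0.13, a sign that turned with median scaling, where it was -0.38. Among 10 other subunits of BLOC-1 and AP-3, 8 were lower, with a median of -0.25, and without p45-/- array 1 it was 4 of 10, with a median of 0.029. Ap3s1 (-0.54), Ap3m2 (-0.43) and Ap3m1 (-0.30), small and medium AP-3 subunits (-0.24, 0.014 and -0.18 without p45-/- array 1), had the smallest unadjusted p among them, and 0 of the 10 passed the threshold with or without the block.

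In the HOPS and VPS33B group, 1 gene stood far from the others. VPS33B is a Sec1/Munc18 protein that pairs with VIPAS39 and is needed for alpha granules, while its relative VPS33A belongs to HOPS, the complex that tethers late endosomes and lysosomes. Vps33b was at 1.64, 2.77 and 2.71 on p45-/- arrays 1 to 3, against 3.17, 4.41 and 4.52 on WT arrays 1 to 3. All p45-/- values lay below all WT values, and within the numbered pairs the differences were -1.53, -1.64 and -1.81. The mean difference of -1.66 (SE 0.51, 95% interval -2.88 to -0.44) is 3.16-fold lower, with a limma adjusted p of 0.672, or 0.0890 with the replicate block. Without p45-/- array 1 it was -1.29.

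The 6 HOPS subunits Vps11, Vps16, Vps18, Vps33a, Vps39 and Vps41 all had differences between -0.1 and 0.1, with 95% intervals that spanned at least the range from -0.81 to 0.75. Among their other tested probes, dim ones of Vps11 and Vps18 gave 0.68 and 1.28, and one of Vps33a gave -0.17. Signs of the 6 subunits depended on the scaling. The median over the whole HOPS and VPS33B group was -0.047, against 0.15 with quantile normalization and 0.21 without p45-/- array 1. Without replicate 1 of both groups it was 0.33, with 1 of 8 lower. The 3 numbered pairs moved in unlike ways, with group medians of -0.88, 0.48 and 0.16 for replicates 1, 2 and 3. Vps33a was at 0.69, 1.92 and 1.71 on p45-/- arrays 1 to 3, against 1.62, 1.29 and 1.30 on WT arrays 1 to 3, which is lower for replicate 1 and higher for replicates 2 and 3. Vipas39, the partner of Vps33b, was at 1.36, 2.51 and 2.25 on p45-/- arrays 1 to 3, against 2.64, 2.25 and 2.30 on WT arrays 1 to 3. Its groups overlapped and its difference was -0.36 (95% interval -1.28 to 0.56, limma adjusted p = 0.761), or -0.016 without p45-/- array 1.

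Vps33b and Vps33a were also set against each other within each array, which removes the scaling between arrays. The log2 value of Vps33b minus that of Vps33a was 0.95, 0.85 and 1.00 on p45-/- arrays 1 to 3, against 1.56, 3.12 and 3.22 on WT arrays 1 to 3. The levels of 2 probes cannot be compared as such, but the change in their gap between arrays can. It was 0.93 ± 0.077 in p45-/- and 2.63 ± 0.93 in WT (SD, n = 3 each), a difference of -1.70 with no overlap. A two-sided exact permutation test gave p = 0.1, the smallest that 3 arrays against 3 allow. The plot of levels by array shows the unlike course of these paralogues.

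A related list held 9 genes of CORVET, the early endosomal relative of HOPS, and of endosomal tethering or sorting. Of these 8 were lower with a median of -0.22, and without p45-/- array 1 it was 4 of 9 with a median of 0.083. Without replicate 1 of both groups it was 3 of 9, with a median of 0.11. Snx1 (-0.41), Vps4b (-0.39) and Rbsn (-0.31) had the smallest unadjusted p, and 0 of the 9 passed the threshold with or without the block. None of these lay near the difference of Vps33b.

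**Figure D2:**
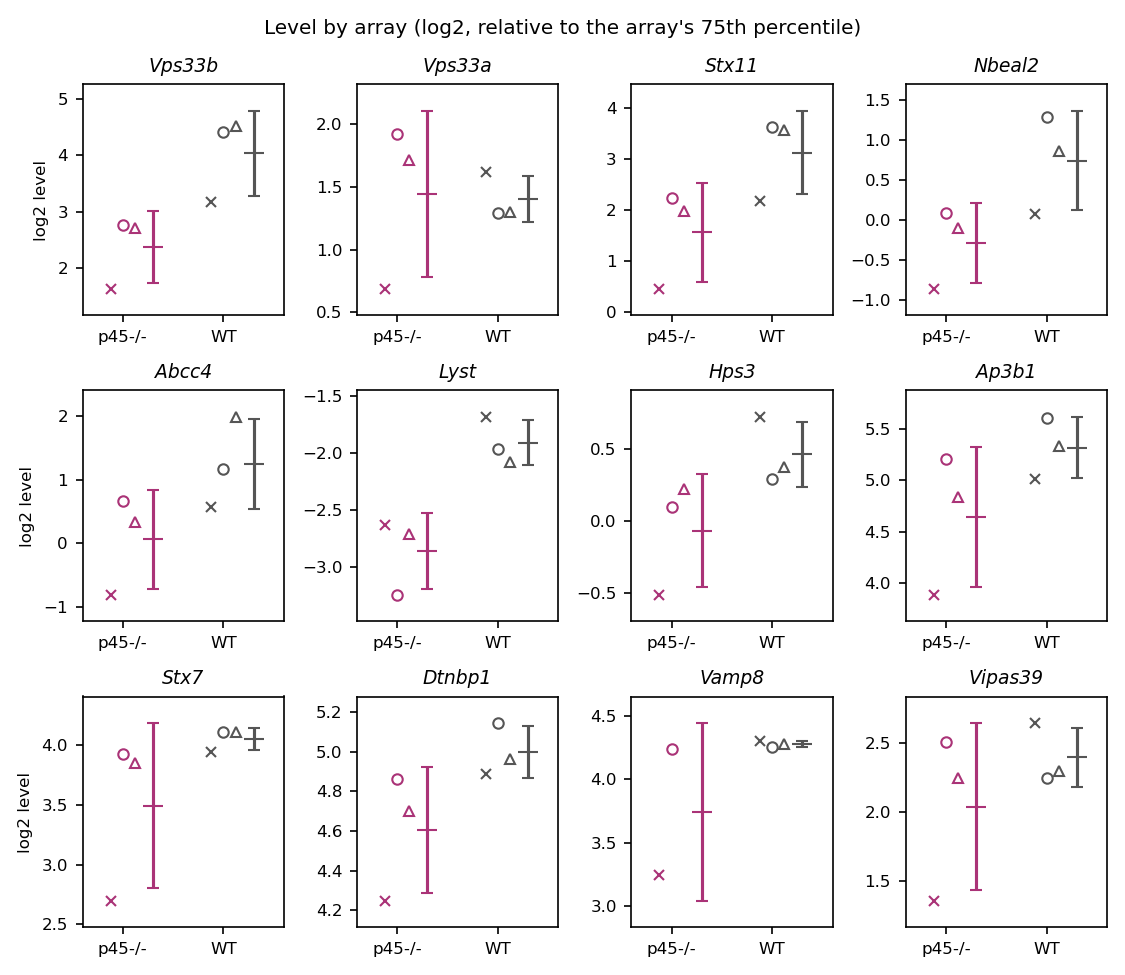
Log2 level relative to the array's 75th percentile, per array, in p45-/- (left, purple) and WT (right, grey) for 12 members; crosses, circles and triangles are replicates 1, 2 and 3, and bars give the mean ± SD (n = 3, but n = 2 for Vamp8 in p45-/-). Vps33b (1.64 to 2.77 in p45-/- and 3.17 to 4.52 in WT), Lyst, Hps3, Dtnbp1, Stx7 and Vamp8 separate by group on all arrays measured. For Dtnbp1 this holds for the probe plotted, not for its other tested probes. Stx11, Nbeal2, Abcc4 and Ap3b1 overlap but are lower within each numbered pair, and Vps33a and Vipas39 overlap.

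SNAREs and their regulators were lower in p45-/- for 11 of 12 members, with a median of -0.44, or for 10 of 12 with a median of -0.19 under quantile normalization. For all 12 the lowest level was that of p45-/- array 1, and without that array 7 of 12 were lower, with a median of -0.041. Without replicate 1 of both groups 10 of 12 were lower, with a median of -0.18. Stx11 encodes syntaxin-11, a SNARE on which platelet secretion depends in humans and which is lost in a familial form of haemophagocytic lymphohistiocytosis. Its level was 0.45, 2.24 and 1.98 on p45-/- arrays 1 to 3, against 2.18, 3.61 and 3.56 on WT arrays 1 to 3. WT array 1 lay slightly below p45-/- array 2, so the groups overlapped, but within the numbered pairs the differences were -1.73, -1.37 and -1.58. The mean difference was -1.56 (SE 0.62, 95% interval -3.05 to -0.073, 2.95-fold lower), with a limma adjusted p of 0.704, or 0.0999 with the replicate block. Without p45-/- array 1 it was -1.01.

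The other 11 SNARE members had differences between -0.58 and 0.077. Stx7, a syntaxin of late endosomes, was at 2.70, 3.93 and 3.85 on p45-/- arrays 1 to 3, against 3.94, 4.10 and 4.10 on WT arrays 1 to 3. The groups did not overlap, with the widest gap on array 1, and the difference was -0.56 (SE 0.40, limma adjusted p = 0.704). Vamp8, the main vesicle SNARE of platelet secretion, was at 3.25 and 4.24 on p45-/- arrays 1 and 2, against 4.30, 4.25 and 4.28 on WT arrays 1 to 3, its spot on p45-/- array 3 being flagged and left out. Between arrays 2 the difference was only -0.013, against -1.05 between arrays 1, and the mean difference was -0.53 (SE 0.41, limma adjusted p = 0.710). A second Vamp8 probe gave -0.41, also without overlap. Vamp3, another vesicle SNARE, differed by -0.58 and by -0.081 without p45-/- array 1.

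Target SNAREs of the plasma membrane and of endosomes had small negative differences. Stx4a, syntaxin-4, differed by -0.45, Stx8 of endosomes by -0.37 and Snap23, the SNAP-25 relative that completes the platelet fusion complex, by -0.17. Other tested probes of Snap23 gave -0.47 and -0.44. The differences without p45-/- array 1 were -0.14 for Stx4a and -0.043 for Stx8. Among the regulators, Stxbp2 (Munc18-2, the partner of syntaxin-11) differed by -0.43, Unc13d (Munc13-4, which primes dense granules for release) by -0.31 and Sytl4 (granuphilin, a Rab effector) by -0.50. Nsf and Napa, the ATPase and its adaptor that take spent SNARE complexes apart, differed by -0.43 and 0.077. Snap23, Nsf, Unc13d, Sytl4 and Napa were above 0 without p45-/- array 1, with WT array 1 kept, the largest being Snap23 at 0.48. Without replicate 1 of both groups, Nsf, Unc13d and Sytl4 were at -0.27, -0.19 and -0.16, and Snap23 and Napa at 0.20 and 0.38.

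Of 27 other SNAREs and SNARE regulators tested, 25 were lower with a median of -0.33, and without p45-/- array 1 it was 16 of 27 with a median of -0.048. Stx2, the syntaxin also called epimorphin, had the smallest unadjusted p of the list. It was at 0.54, 1.52 and 1.15 on p45-/- arrays 1 to 3, against 1.97, 2.88 and 2.55 on WT arrays 1 to 3. All p45-/- values lay below all WT values, with near equal differences of -1.44, -1.36 and -1.41 in the numbered pairs. The mean difference was -1.40 (SE 0.40, 95% interval -2.35 to -0.45), with a limma adjusted p of 0.625, or 0.114 with the replicate block. With array weights it passed the threshold, at a limma adjusted p of 0.0411, where 505 genes or 2.77% of all did. Without p45-/- array 1 the difference was -1.13. Vamp5 differed by -0.72 without overlap, though normexp background correction gave 0.018, and Vti1a by -0.65. In limma with or without the block, 0 of the 27 passed the threshold.

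BEACH proteins and granule transporters had the lowest group median. All 4 members were lower in p45-/-, with a median of -0.99, and without p45-/- array 1 it was 3 of 4 with a median of -0.75. Slc35d3 was the exception there and under quantile normalization. Without replicate 1 of both groups it was 4 of 4, with a median of -1.02. The group medians in the numbered pairs were -0.94, -0.85 and -0.80, nearly alike, in contrast to the medians of the other groups. Nbeal2, the BEACH protein that alpha granules need, was at -0.86, 0.10 and -0.10 on p45-/- arrays 1 to 3, against 0.073, 1.30 and 0.86 on WT arrays 1 to 3. The groups overlapped, since WT array 1 lay just below p45-/- array 2, and the numbered pairs differed by -0.93, -1.20 and -0.96. The mean difference was -1.03 (SE 0.44, 95% interval -2.08 to 0.021, 2.04-fold lower), with a limma adjusted p of 0.704, or 0.134 with the replicate block.

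Lyst encodes the lysosomal trafficking regulator that is lost in beige mice and in Chediak-Higashi syndrome. It was read by a dim probe, at -2.63, -3.25 and -2.71 on p45-/- arrays 1 to 3, against -1.69, -1.97 and -2.08 on WT arrays 1 to 3. All p45-/- values lay below all WT values, and the lowest was on p45-/- array 2, not array 1. The difference was -0.95 (SE 0.31, 95% interval -1.69 to -0.22, 1.93-fold lower), with a limma adjusted p of 0.704, or 0.158 with the replicate block. It was -1.07 without p45-/- array 1, but -0.087 with normexp background correction.

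Abcc4, a nucleotide transporter (MRP4) found in platelet dense granules, was at -0.81, 0.67 and 0.33 on p45-/- arrays 1 to 3, against 0.58, 1.17 and 1.98 on WT arrays 1 to 3. The groups overlapped, since WT array 1 lay below p45-/- array 2, and the numbered pairs differed by -1.38, -0.51 and -1.65. The mean difference was -1.18 (SE 0.53, 95% interval -2.46 to 0.10, 2.27-fold lower), with a limma adjusted p of 0.704, or 0.140 with the replicate block. A second Abcc4 probe gave -0.90. Slc35d3, an orphan transporter of the nucleotide sugar family that mouse dense granules need, differed by -0.26 (95% interval -1.26 to 0.74).

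Rab GTPases recruit many of these effectors. The 9 genes tested here encode Rabs, an exchange factor (Madd) and a subunit of an enzyme that modifies Rabs (Rabggta). Their mean was lower in p45-/- for 8 of 9, with a median of -0.29, and without p45-/- array 1 for 5 of 9, with a median of -0.091. Without replicate 1 of both groups it was 6 of 9, with a median of -0.045. Rab27b, which serves the dense granules of mouse platelets together with Rab27a, was at 0.40, 2.53 and 2.58 on p45-/- arrays 1 to 3, against 1.64, 3.55 and 3.62 on WT arrays 1 to 3. The groups overlapped, but every numbered pair differed by over 1 step of log2, at -1.24, -1.02 and -1.04, for a mean of -1.10 (SE 0.80, limma adjusted p = 0.704, or 0.132 with the replicate block). The mean difference was -0.38 without p45-/- array 1, with WT array 1 kept. Rab27a differed by -0.71 and Rab8a by -0.64, and 0 of the 9 passed the threshold with or without the block. Across the groups and these related lists, the plot by list shows medians below that of all genes except for HOPS and VPS33B, whose median was level with it.

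**Figure D3:**
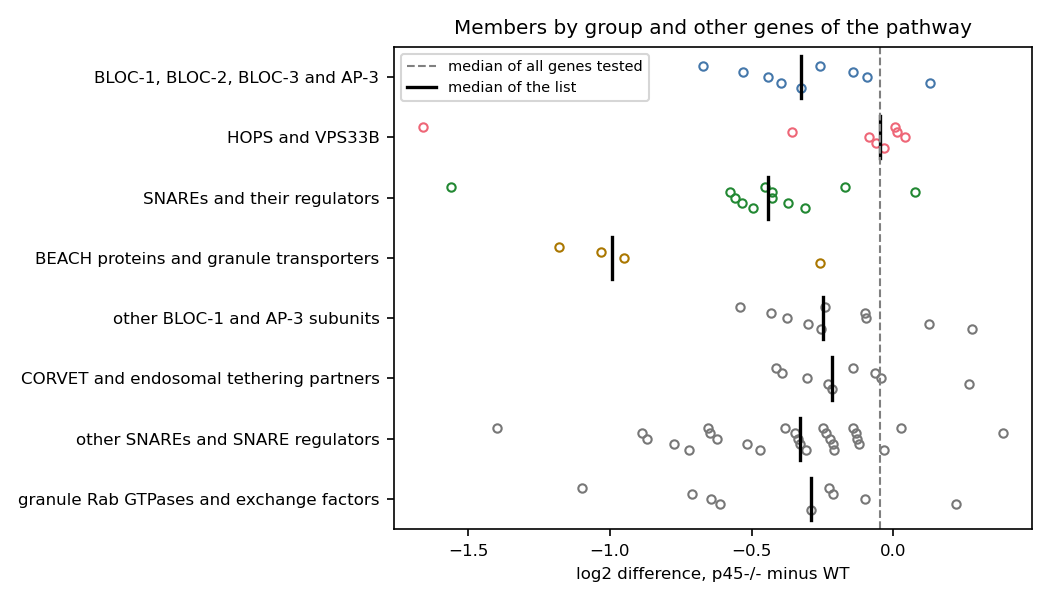
Log2 difference, p45-/- minus WT, of each gene (circles) in the 4 groups of members (coloured) and 4 lists of related genes (grey), with the list's median (black bar) and the median of all genes tested (dashed line). Group medians run from -0.99 for BEACH proteins and transporters to -0.047 for HOPS and VPS33B, a median that was 0.15 with quantile normalization; Vps33b, Stx11 and Stx2 lie far from the rest of their lists.

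The 5 members with the lowest differences had them also without p45-/- array 1. They were picked on these arrays, which this and the settings below reuse, so neither is independent support. At -0.5 or lower without p45-/- array 1 were 15.2% of members and 11.3% of all genes. Vps33b, Lyst, Stx11, Nbeal2 and Abcc4 were then at -1.29, -1.07, -1.01, -0.75 and -0.75, and the next member, Hps1, at -0.40. Hps3, Ap3b1, Dtnbp1 and Stx7 were then at -0.31, -0.29, -0.22 and -0.16, nearer to 0 than over all 6 arrays. The sign of the first 5 was negative under all 24 alternative settings run. Some of these settings could hardly change it, since they alter only the test or the filter. With the replicate or slide block the largest shift of any member was 0.001. Ranges over those settings were -2.17 to -1.21 for Vps33b, -2.07 to -0.93 for Stx11, -1.54 to -0.69 for Nbeal2, -1.69 to -0.71 for Abcc4 and -1.46 to -0.087 for Lyst. Neutrophil markers (6 of 6 lower, median -0.84) and mast cell and basophil markers (5 of 6 lower, median -1.05) were lower in p45-/- too. Without p45-/- array 1 their medians were -1.01 and -0.46. The mast cell and basophil median was -1.04 without replicate 1 of both groups. Erythroid markers were higher. The part of these marker lists in the 5 differences was not tested. For 13 of the 16 members with more than 1 tested probe, all probes had the same sign. Vps11, Vps33a and Vps39 were the exceptions, and the probes of Vps18 ranged from 0.014 to 1.28. Of the 5, only Abcc4 is among these 16, and Vps33b, Stx11, Nbeal2 and Lyst were each read by 1 probe.

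**Figure D4:**
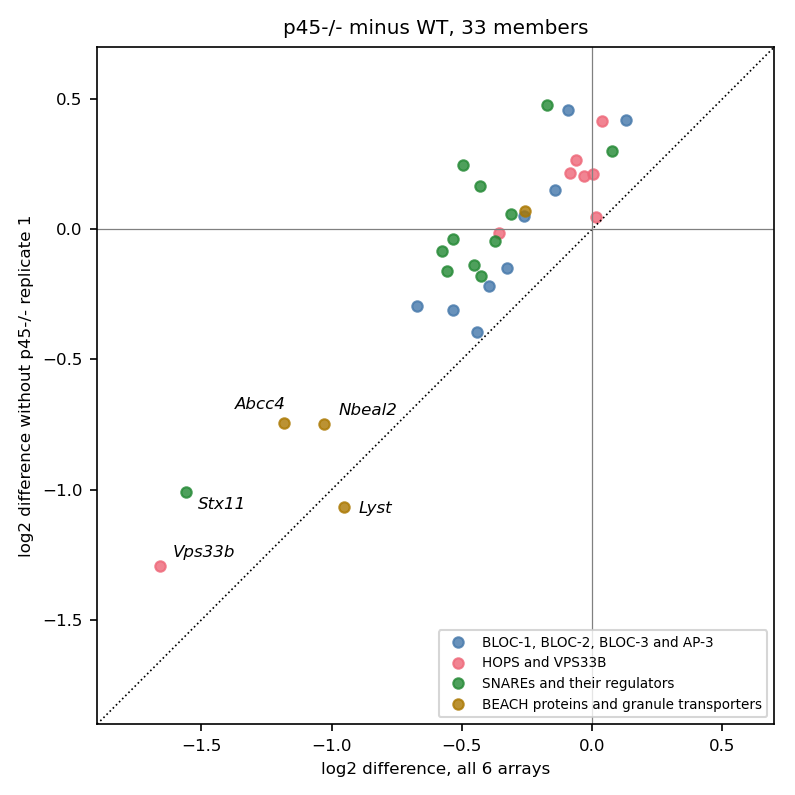
Log2 difference, p45-/- minus WT, of each of the 33 members over all 6 arrays (x axis) and without p45-/- array 1 (y axis), coloured by group; the dotted line marks equal values. Most members lie above the line and near 0 on the y axis (median -0.016), while Vps33b, Stx11, Lyst, Nbeal2 and Abcc4 lie between -1.29 and -0.75.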

How the data were processed

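Total RNA was labelled with Cy3 and hybridised to single-colour Agilent arrays, per the labels' protocols. The deposited processed intensities are background-subtracted, spatially detrended within the array and not scaled between arrays, per the file headers, which give version 10.7.3.1 of Agilent Feature Extraction. The submitters' processing notes give version 10.1. The series' value table, as deposited by the authors, held the same linear intensities to within 0.497%, with column medians of 20.9 to 42.0, and was used as an alternative.

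From these intensities, log2 values were taken, flagged spots (32 to 80 per array) were set to missing, spots of a probe were averaged, and arrays were scaled by subtracting the 75th percentile over non-control probes. No spot was saturated, and 9 of 10 quality metrics were in range on WT array 2, all 10 elsewhere. Probes had to be well above background on every array of the p45-/- group, of the WT group or of both, which left 23959 of 41174 probes. A gene was its kept probe with the highest mean. Accessions were matched to RefSeq symbols of assembly GRCm38.p6, which named 26690 probes and left 14484 with an accession only. The test over 18211 genes was limma's (version 3.58.1, R 4.3.3; lmFit and eBayes), two-sided, and p-values were adjusted by Benjamini-Hochberg with a threshold of 0.05 (4 residual degrees of freedom, 2 with the replicate block). The fit was tested on simulated data.

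Same-numbered arrays of p45-/- and WT deviated from their group means together, with correlations across genes of 0.647, 0.589 and 0.270, all above 0.1. Pairing by number therefore rests on these data, with no statement in the labels; p45-/- array 3 was closer to WT array 2, at 0.616, than to its own number. Slide 1 held replicate 3 of each group, slide 2 the remaining 4 arrays, and slides and scans coincide. All 33 members are named, with array values for those with the 8 smallest unadjusted p and those without overlap; values of Hps1, Vps33a, Vipas39 and Rab27b were added after they were seen. Of each related list the 3 tested genes with the smallest unadjusted p are named. Members and lists were chosen with earlier results of these data known. Stx10, Rab7 and Rab4a of those lists were not matched by name, and Sytl2 and Chm failed the filter. Nothing says that the independent experiments used separate livers, so p-values measure the spread between these arrays, and their number limits the precision.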

Additional observations from a re-analysis of the deposited data

How the results depend on the processing

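Of all genes tested, limma called 0 in the fit reported and with slide as a block, 5 with the replicate block, 10 with median scaling, 1 with the replicate block and the percentile taken over spots, 1 with an intensity trend and robust prior, 505 with array weights, 18 without replicate 1 of both groups, and 0 to 1 when 1 array was left out (1 without WT replicate 1). Of the 33 members, 1 was called with array weights (Vps33b, limma adjusted p = 0.0305), where 2.77% of all genes were called. Under every other setting that had a test 0 members were called, the replicate block included. The next smallest adjusted p of a member under any setting was 0.0598 (Stx11, array weights). Of the related genes named, Stx2 was called with array weights (adjusted p = 0.0411). The numbers of members with a lower mean were 17 to 33 when 1 array was left out, lowest without p45-/- replicate 1, and 15 with quantile normalization without that array. Members lower without overlap numbered 6 to 13 when 1 array was left out, where 11.0% to 17.4% of all genes were: 13 without p45-/- replicate 2 (13.7% of all genes) and without WT replicate 1 (17.4%). Without replicate 1 of both groups the number was 13, beside 21.2%. Median scaling gave medians of -0.88 for the members, -0.84 for BLOC and AP-3, -0.56 for HOPS and VPS33B and -0.95 for SNAREs, beside -0.56 for all genes, and array weights gave 0.085 for BLOC and AP-3. Within slide 1, with 1 array per group and no test, 19 of the 32 members measured there were lower, and within slide 2 it was 31 of 33. The gap of Vps33b over Vps33a was smaller in p45-/- under all settings run, by differences of -2.24 to -1.40. Settings that alter only the test, or the scaling by a constant per array, cannot move it and left it at -1.70. The normexp correction, the percentile over spots, the block combined with another scaling, and quantile normalization without p45-/- replicate 1 were chosen after seeing the data; normexp used median signals, since the files used here hold no mean signal column. Under normexp the dim probe of Lyst had the largest shift of any member, 0.864. The number of arrays, 3 per group, limits every value.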
